A study of Homo sapiens with 3 samples.

Results

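The MCM helicase family was examined in RNA-seq data from Caki-1 cells after depletion of RBCK1 (also called HOIL-1), a ubiquitin ligase of the RBR (RING-IBR-RING) family. Caki-1 is an established human clear cell renal cell carcinoma line. The genes were chosen by name as MCM2, MCM3, MCM4, MCM5, MCM6, MCM7, MCM8, MCM9, MCM10 and MCMBP, and all 10 were found among the 44591 genes of the deposited table. This choice was made with earlier results of these data known. Cells received the non-targeting si-Control, or si-HOIL-1#1 or si-HOIL-1#2 of the labels (here si-RBCK1 #1 and si-RBCK1 #2), at 10 nmol/L, and RNA was taken after 48 h per the methods. There were 3 libraries, 1 per condition, which leaves the differences without a replicate check and without p-values. Values of the separate siRNAs were kept apart. Both are compared with the same si-Control library, so the 2 comparisons are not independent of each other.

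The siRNA sequences listed in the study's supplement are shown because they define the 2 depleted conditions, with its numbers 1 and 2 taken as those of the labels.
si-RBCK1 #1: ggtgcaccttcatcaacaa
si-RBCK1 #2: ggattaccagcgatttcta

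MCM2 to MCM7 form a ring of 6 different subunits that is loaded onto replication origins in G1 phase and becomes the motor of the replicative DNA helicase in S phase. The ring is loaded by the origin recognition complex with CDC6 and CDT1, and it becomes active when CDC45 and the GINS complex join it to form the CMG helicase. MCM8 and MCM9 form a separate helicase that acts in homologous recombination. MCM10 shares the name but is not a helicase, and it helps to activate the CMG complex. MCMBP binds MCM subunits outside chromatin and helps to assemble and protect the ring. Transcription of the MCM2 to MCM7 genes is a textbook target of E2F factors at the G1/S transition.

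The libraries were scaled by 36926834 (si-Control), 40442939 (si-RBCK1 #1) and 36344428 (si-RBCK1 #2) reads, totals recovered from the steps between low values. Levels are in RPKM, reads per kilobase of gene, scaled to the library total, and the reads behind a value are the smallest whole numbers that its 3 RPKM values allow. The true reads may be a multiple of these, and the intervals on reads are then too wide. The targeted gene RBCK1 was at 33.3 RPKM in si-Control, 9.97 RPKM in si-RBCK1 #1 and 12.3 RPKM in si-RBCK1 #2, which is 29.9% and 36.8% of si-Control. Between 12263 and 12473 genes were at 1 RPKM or more in a library. Of 7 renal epithelial markers, PAX8, KRT8 and KRT18 had a mean of at least 1 RPKM, while PAX2, a defining kidney factor, was at most at 0.0642 RPKM. In si-Control, si-RBCK1 #1 and si-RBCK1 #2, KRT8 was at 65.6, 172 and 238 RPKM and KRT18 at 95.3, 142 and 172 RPKM, while PAX8 was lower in both depleted libraries (124, 82.5 and 107 RPKM), and the part of these markers in the results below was not tested. Of 7 markers of other cells, CD68 (41.8 to 52.3 RPKM) and COL1A1 (3.21 to 4.68 RPKM) reached that level, and PTPRC, PECAM1 and CDH5 were at or near 0 in every library.

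All 6 subunit genes of the MCM2-7 ring were higher in both RBCK1-depleted libraries than in si-Control, by 1.89-fold to 3.32-fold with si-RBCK1 #1 and by 1.96-fold to 3.64-fold with si-RBCK1 #2. MCM10 was higher as well, while MCM8, MCM9 and MCMBP differed from si-Control by at most 1.23-fold in either direction. In bulk RNA, more cells that express a gene and more RNA per cell cannot be told apart. Fold values are ratios of RPKM without a pseudocount, and the range after each is a 95% interval from an exact Clopper-Pearson interval on the reads, which covers counting error only. The log2 ratios were computed on log2(RPKM + 1) and are slightly smaller for that reason. Gene positions are those of the deposited table, on the hg19 build.

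MCM4 (chr8:48872763-48890720, plus strand), which carries sites phosphorylated by the kinase that fires origins, was at 17.3 RPKM in si-Control (3138 reads), 57.3 RPKM in si-RBCK1 #1 (11397 reads) and 62.9 RPKM in si-RBCK1 #2 (11237 reads). It was 3.32-fold higher with si-RBCK1 #1 (interval 3.19 to 3.45) and 3.64-fold higher with si-RBCK1 #2 (3.50 to 3.79), the largest differences within the ring. MCM6 (chr2:136597196-136634047, minus strand), a neighbour of MCM2 in the ring, had the smallest differences within it. Its level was 9.50 RPKM in si-Control (1329 reads), 18.0 RPKM in si-RBCK1 #1 (2757 reads) and 18.6 RPKM in si-RBCK1 #2 (2560 reads). The folds were 1.89 (1.77 to 2.02) and 1.96 (1.83 to 2.09), and these intervals did not overlap those of any other subunit gene in the same library.

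MCM5 (chr22:35796116-35820495, plus strand) forms with MCM2 the gate through which the ring opens on DNA, and it was the lowest subunit gene in si-Control. It was at 8.01 RPKM in si-Control (753 reads), 21.4 RPKM in si-RBCK1 #1 (2206 reads) and 23.9 RPKM in si-RBCK1 #2 (2209 reads), which is 2.67-fold (2.46 to 2.91) and 2.98-fold (2.74 to 3.24) higher. MCM2 (chr3:127317200-127341279, plus strand), which also binds histones H3 and H4 through its N-terminal tail, had 19.1 RPKM from 2469 reads, 49.3 RPKM from 6987 reads and 48.9 RPKM from 6227 reads in the same order. It was 2.58-fold (2.47 to 2.71) and 2.56-fold (2.45 to 2.69) higher. Both genes of this gate were above si-Control in each depleted library by more than the counting error.

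MCM3 (chr6:52128812-52149679, minus strand), the subunit that contacts the loading complex through its C-terminal end, was at 16.6 RPKM in si-Control (1971 reads), 44.1 RPKM in si-RBCK1 #1 (5727 reads) and 46.1 RPKM in si-RBCK1 #2 (5375 reads). The folds were 2.65 (2.52 to 2.79) and 2.77 (2.63 to 2.92). MCM7 (chr7:99690351-99699563, minus strand), part of the stable core with MCM4 and MCM6, had the highest level of the family in every library. The 3 levels were 27.1 RPKM (3657 reads), then 63.2 RPKM (9339 reads) and 66.6 RPKM (8839 reads), which is 2.33-fold (2.24 to 2.42) and 2.46-fold (2.36 to 2.55) higher.

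MCM10 (chr10:13203554-13253104, plus strand) was at 4.46 RPKM in si-Control (750 reads), 17.5 RPKM in si-RBCK1 #1 (3217 reads) and 15.7 RPKM in si-RBCK1 #2 (2593 reads). Its folds were 3.92 (3.62 to 4.25) and 3.51 (3.24 to 3.82), the largest of the family with si-RBCK1 #1, and with si-RBCK1 #2 its interval overlapped that of MCM4. In si-Control MCM10 was below MCM8, and in both depleted libraries it was above it.

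The other 3 members showed small differences. MCM8 (chr20:5931298-5975852, plus strand) was at 5.21 RPKM in si-Control (754 reads), 5.41 RPKM in si-RBCK1 #1 (858 reads) and 6.30 RPKM in si-RBCK1 #2 (897 reads). Its fold with si-RBCK1 #1 was 1.04 with an interval that includes 1 (0.941 to 1.15), and with si-RBCK1 #2 it was 1.21 (1.10 to 1.33). With libraries scaled to equal totals, its log2 ratio with si-RBCK1 #1 changed from 0.05 to -0.00092. MCM9 (chr6:119134612-119256327, minus strand), its helicase partner, had 0.784 RPKM from 178 reads, 0.712 RPKM from 177 reads and 0.774 RPKM from 173 reads. Its folds were 0.908 (0.733 to 1.12) and 0.987 (0.796 to 1.22), so no difference was detectable at this depth. MCM9 was the only member below the filter of a mean of 1 RPKM.

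MCMBP (chr10:121588916-121633140, minus strand) was at 22.5 RPKM in si-Control (3737 reads), 27.7 RPKM in si-RBCK1 #1 (5030 reads) and 24.5 RPKM in si-RBCK1 #2 (3996 reads). It was 1.23-fold (1.18 to 1.28) and 1.09-fold (1.04 to 1.14) higher, above counting error but far below the ring subunits. In si-Control MCMBP was above every ring gene except MCM7, whereas in both depleted libraries MCM2, MCM3, MCM4 and MCM7 were above it.

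The study's methods use a 2-fold limit together with a P limit, and only the fold limit was applied here. On the log2(RPKM + 1) scale, 6 of the 10 members (MCM2, MCM3, MCM4, MCM5, MCM7 and MCM10) were at least 2-fold higher with si-RBCK1 #1, where 2.91% of the 12403 genes whose mean reached 1 RPKM were at least 2-fold higher. With si-RBCK1 #2 the same 6 members were at least 2-fold higher, against 2.5% of all genes used. At a limit of 1.5-fold MCM6 was added, giving 7 members with each siRNA, against 12.1% of all genes with si-RBCK1 #1 and 11.3% with si-RBCK1 #2. No member was lower by 2-fold or more, against 3.27% and 2.27% of all genes, nor by 1.5-fold or more, against 11.6% and 9.32%. The median log2 ratio of the 6 ring genes was 1.32 (si-RBCK1 #1) and 1.37 (si-RBCK1 #2), and the median over all genes used was 0.02 and 0.03. Of all genes used, 0.484% had a higher ratio than MCM4 with si-RBCK1 #1 and 0.226% with si-RBCK1 #2, and for MCM6 these shares were 4.52% and 3.60%.

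The 2 depleted libraries were also set directly against each other, which does not involve si-Control. The level in si-RBCK1 #2 over that in si-RBCK1 #1 ranged from 0.884 for MCMBP (0.848 to 0.922) to 1.16 for MCM8 (1.06 to 1.28). MCM10 was lower in si-RBCK1 #2, with a ratio of 0.897 (0.851 to 0.945). MCM4 (1.10, interval 1.07 to 1.13) and MCM5 (1.11, interval 1.05 to 1.18) were higher in si-RBCK1 #2. For MCM2, MCM6 and MCM9 the interval of this ratio included 1. These differences between the siRNAs were small beside the difference of the ring genes from si-Control.

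The subunits stand in equal numbers in the ring, whereas their RNA levels in RPKM, which rest on the gene lengths used, were unequal. The summed level of MCM2 to MCM7 was 97.6 RPKM in si-Control, 253 RPKM in si-RBCK1 #1 and 267 RPKM in si-RBCK1 #2, which is 2.60-fold and 2.73-fold higher. The highest subunit gene over the lowest was 3.38 in si-Control (MCM7 over MCM5), 3.51 in si-RBCK1 #1 and 3.58 in si-RBCK1 #2 (MCM7 over MCM6 in both). MCM4 made up 17.7% of the summed level in si-Control, 22.6% in si-RBCK1 #1 and 23.6% in si-RBCK1 #2. MCM6 went the other way, from 9.74% to 7.10% and 6.97%, and MCM7 from 27.8% to 24.9% in both. The shares of MCM2, MCM3 and MCM5 lay within 18.3% to 19.5%, 17% to 17.4% and 8.21% to 8.94%.

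The order of the levels changed accordingly. In si-Control it ran from MCM7 through MCMBP, MCM2, MCM4, MCM3, MCM6, MCM5, MCM8 and MCM10 to MCM9, and the only neighbours whose counting intervals overlapped were MCM4 and MCM3. In si-RBCK1 #1 it ran from MCM7 through MCM4, MCM2, MCM3, MCMBP, MCM5, MCM6, MCM10 and MCM8 to MCM9, with overlap between MCM6 and MCM10 only. The order in si-RBCK1 #2 was the same as in si-RBCK1 #1, and there MCMBP and MCM5 overlapped. These intervals do not cover error in the gene lengths behind RPKM, so they do not settle the order of genes with close levels.

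Promoter sequences are shown because 6 ring genes and MCM10 were higher together. RefSeq windows (GRCh38.p14) from 250 bases before to 50 bases after the gene start were matched by symbol for 8 of the 10 members, all but MCM4 and MCM5. Each window was searched on both strands for an E2F-type word, spelled TTTCCCGC, TTTCGCGC, TTTGCCGC or TTTGGCGC, with overlapping matches counted as 1 site. Positions are counted from the first base of the gene, which is position 0. The first 270 bases of 4 windows are given 5′ to 3′, with E2F-type words in capitals.
MCM2, chr3:127598161-127598430 (+): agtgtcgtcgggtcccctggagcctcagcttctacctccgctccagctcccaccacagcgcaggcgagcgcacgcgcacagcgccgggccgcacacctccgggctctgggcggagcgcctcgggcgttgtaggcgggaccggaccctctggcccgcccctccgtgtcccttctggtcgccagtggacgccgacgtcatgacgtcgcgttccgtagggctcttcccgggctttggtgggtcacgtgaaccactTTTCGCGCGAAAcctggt
MCM6, chr2:135876424-135876693 (-): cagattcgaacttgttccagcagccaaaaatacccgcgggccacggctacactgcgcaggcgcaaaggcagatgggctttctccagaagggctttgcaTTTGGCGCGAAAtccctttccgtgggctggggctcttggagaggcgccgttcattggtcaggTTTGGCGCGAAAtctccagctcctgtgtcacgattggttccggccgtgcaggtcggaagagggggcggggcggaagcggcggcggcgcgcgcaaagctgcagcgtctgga
MCM7, chr7:100101378-100101647 (-): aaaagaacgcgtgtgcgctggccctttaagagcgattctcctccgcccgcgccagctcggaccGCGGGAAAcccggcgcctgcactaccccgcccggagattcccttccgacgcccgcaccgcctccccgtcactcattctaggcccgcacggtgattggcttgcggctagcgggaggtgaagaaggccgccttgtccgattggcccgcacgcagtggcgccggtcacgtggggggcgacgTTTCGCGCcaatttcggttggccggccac
MCM10, chr10:13161308-13161577 (+): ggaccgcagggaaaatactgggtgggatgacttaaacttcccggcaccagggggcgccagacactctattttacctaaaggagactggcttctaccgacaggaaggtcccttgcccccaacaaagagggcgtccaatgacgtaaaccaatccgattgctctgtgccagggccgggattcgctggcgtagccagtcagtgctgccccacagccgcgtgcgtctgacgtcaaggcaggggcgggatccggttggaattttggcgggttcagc

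Among the ring genes, MCM2 held TTTCGCGCGAAA, in which the word is read on both strands, from position 2. MCM6 held TTTGGCGCGAAA at 2 sites, from positions -152 and -90. The window of MCM7 that lies farthest upstream held GCGGGAAA, the reverse complement of a word, from position -187 and TTTCGCGC from position -9, while its other 2 windows held none. MCM3 held TTTCCCGC from position -174 and TTTCGCGC from position -4. A word was also found in windows of MCM8, from position 26, and of MCMBP, from position -9 of 1 of its 2 windows, although the levels of these 2 genes differed little. MCM10 and MCM9 had no match to the spellings searched in these windows. Near spellings that differ in a letter were not searched, so a window without a match may still hold one. Of all 35116 windows, 3.31% held an E2F-type word, and of the 8755 genes used that had a window, 6.88% held it in at least 1 window, the share to set beside these counts of genes.

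The same words were set against the ratios of these 8755 genes. The 602 genes with an E2F-type word had a median log2 ratio of 0.10 with each siRNA, and the 8153 genes without it had 0.02 with si-RBCK1 #1 and 0.04 with si-RBCK1 #2. Of the genes with a word, 15.8% and 15.6% were at least 1.5-fold higher, against 11.4% and 10.6% of those without. The ring genes lay far above these medians. The CCAAT box (CCAAT) and the GC box (GGGCGG) were in 34.6% and 45% of all windows, and in a window of 43.8% and 78.4% of the genes used. The first was in a window of MCM3, MCM6, MCM7, MCM8, MCM9 and MCM10, and the second in a window of every matched member except MCM3. A match is a description of the letters in a window and does not show that a factor binds there.

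Some members share their promoter region or their span with another gene. PRKDC, the catalytic subunit of DNA-dependent protein kinase, starts 20 nt from MCM4 on the opposite strand. It was at 55.5 RPKM in si-Control, 66.2 RPKM in si-RBCK1 #1 and 71.4 RPKM in si-RBCK1 #2, folds of 1.19 (1.17 to 1.21) and 1.29 (1.27 to 1.31), against 3.32-fold and 3.64-fold for MCM4 beside it. TRMT6, a subunit of a tRNA methyltransferase, starts 94 nt from MCM8 and was at 8.0, 12.1 and 11.3 RPKM in the same order, folds of 1.52 (1.38 to 1.67) and 1.42 (1.28 to 1.56). Here the neighbour was higher in the depleted libraries while MCM8 differed by at most 1.21-fold.

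AP4M1, a subunit of the AP-4 adaptor complex, starts 433 nt from MCM7 on the opposite strand and overlaps it by 434 nt. It was at 6.61, 8.26 and 7.89 RPKM, and the intervals of its folds included 1 with both siRNAs (1.25, 0.975 to 1.61, and 1.19, 0.923 to 1.55). These intervals rest on the smallest reads allowed (114, 156 and 134), which imply a length of 467 nt. If the true reads are a multiple of these, the intervals are narrower and may leave out 1. ASF1A, a histone H3-H4 chaperone, lies across 15096 nt of the MCM9 span on the opposite strand. It was at 8.95, 7.74 and 5.40 RPKM, folds of 0.865 (0.783 to 0.954) and 0.603 (0.538 to 0.675), whereas MCM9 showed no detectable difference. The antisense gene ENSG00000253194.1 overlaps MCM9 by 378 nt, with starts 377 nt apart, and was listed at 0 in every library. MCM8-AS1 overlaps MCM8 by 4412 nt on the opposite strand, with 4 reads, 13 reads and 1 read. The library kit keeps the strand, but whether the counting used it is not given in the sources used here, so reads in these overlaps cannot be assigned with certainty.

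The MCM7 gene also carries the microRNA genes MIR106B, MIR93 and MIR25 on its own strand. Their mature forms from RefSeq are shown with the seed (bases 2 to 8) in capitals, because miR-93-5p and miR-106b-5p share the seed AAAGUGC and miR-25-3p does not.
hsa-miR-106b-5p: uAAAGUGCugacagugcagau
hsa-miR-93-5p: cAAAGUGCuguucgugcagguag
hsa-miR-25-3p: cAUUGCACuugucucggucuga

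Reads on these 3 genes were few, and in these libraries they cannot be told apart from reads of the MCM7 precursor. MIR25 held 20 reads in si-Control, 37 reads in si-RBCK1 #1 and 14 reads in si-RBCK1 #2, with folds of 1.69 (0.955 to 3.07) and 0.711 (0.332 to 1.48). MIR93 held 1, 1 and 8 reads, and its fold with si-RBCK1 #2 was 8.13 with an interval from 1.09 to 361. MIR106B held 1, 1 and 0 reads. The interval of MIR25 with si-RBCK1 #2 lay below that of MCM7, and that of MIR93, which rests on 1 read in si-Control, lay above 1.

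The genes that act on the MCM ring were described in lists written from general knowledge, but with earlier results of these data known. Each is given beside the background of 12.1% and 11.3% of all genes at least 1.5-fold higher, and such a choice could raise the counts. The shares of all genes at least 1.5-fold lower were 11.6% and 9.32%. Among CMG partners, 4 of 5 genes were at least 1.5-fold higher with si-RBCK1 #1 and 3 of 5 with si-RBCK1 #2, with median log2 ratios of 1.15 and 0.88 (0.72 and 0.49 with a pseudocount of 5 RPKM). GINS4 was at 2.98 RPKM in si-Control, 10.6 RPKM in si-RBCK1 #1 and 10.7 RPKM in si-RBCK1 #2, log2 ratios of 1.55 and 1.56. The log2 ratios of the other GINS subunits were 1.24 and 0.88 for GINS1, 1.15 and 1.01 for GINS2, and 0.72 and 0.17 for GINS3. CDC45, which completes the CMG complex, had log2 ratios of 0.58 and 0.48.

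Of 9 genes of origin recognition and licensing, 3 were at least 1.5-fold higher with si-RBCK1 #1 and 4 with si-RBCK1 #2, and 1 and 0 were lower by as much. ORC1, the subunit of the origin recognition complex whose level follows the cell cycle, was at 1.67, 8.61 and 8.73 RPKM, log2 ratios of 1.85 and 1.87. CDT1, which brings the MCM ring to origins, had log2 ratios of 1.53 and 1.77, and its inhibitor geminin (GMNN) had 1.49 and 1.38. CDC6 had 0.48 and 0.69. ORC4 was lower, with log2 ratios of -0.59 and -0.53, and the other 4 subunit genes of the complex lay between -0.22 and 0.56. The list thus holds both genes that differed as much as the ring genes and genes that hardly differed, and its medians were 0.55 and 0.33.

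Of 8 origin firing genes, 2 and 3 were at least 1.5-fold higher, with medians of 0.49 and 0.43 (0.27 and 0.29 with a pseudocount of 5 RPKM). RECQL4, a helicase of the RecQ family, had a log2 ratio of 1.35 with each siRNA. TICRR (0.61 and 0.70), DONSON (0.54 and 0.72), MTBP (0.54 and 0.39) and DBF4B (0.44 and 0.35) came next. The kinase that phosphorylates the MCM ring, named for this role after its values were seen, had log2 ratios of 0.19 and 0.39 for CDC7 and 0.06 and 0.02 for its activator DBF4. Of 4 fork protection genes, CLSPN (1.01 and 1.12) and TIMELESS (0.60 and 0.56) had the largest ratios, and WDHD1 (0.27 and 0.19) and TIPIN (0.17 and 0.12) lower ones. The medians of this list were 0.44 and 0.38, with 2 and 1 genes at least 1.5-fold higher.

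Of 10 histone chaperones at the fork, 4 and 5 were at least 1.5-fold higher, with medians of 0.54 and 0.63. They included TONSL (1.43 and 1.73), which binds newly made histones, both large subunits of the chromatin assembly factor CAF-1, CHAF1A (1.33 and 1.30) and CHAF1B (1.26 and 1.19), ASF1B (1.17 and 1.08) and DNAJC9 (0.56 and 0.78). ASF1A, the paralog of ASF1B, was not among them (-0.19 and -0.64). Of 7 genes of helicase unloading, 2 were at least 1.5-fold higher with each siRNA, and the medians were 0.20 and 0.22. The unfoldase VCP, which extracts the ring from chromatin and has many other substrates, had log2 ratios of 1.27 and 1.14, and its cofactor UFD1L had 0.94 and 0.75. FAF1, another VCP cofactor, was lower (-0.95 and -0.93), and NPLOC4 (0.44 and 0.34) and UBXN7 (0.19 and 0.13) differed less. C17orf53 (HROB), the partner that loads MCM8 and MCM9, was at 2.54, 6.19 and 5.03 RPKM, log2 ratios of 1.02 and 0.77, beside the small differences of MCM8 and MCM9. MCM3AP, which shares only the name, had 0.11 and -0.15, and MCMDC2 was at most at 0.237 RPKM. The medians of the 2 of these 3 genes that passed the filter were 0.57 and 0.31.

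Regulators and phase-specific genes, in lists chosen with the same knowledge, were set beside the family. The background was again 12.1% and 11.3% of all genes at least 1.5-fold higher, and 11.6% and 9.32% at least 1.5-fold lower. Of 19 E2F, RB and DREAM regulators, 18 passed the filter, with medians of 0.23 and 0.08. E2F1, an activator of G1/S genes, was at 7.83, 20.2 and 18.6 RPKM, log2 ratios of 1.26 and 1.15. LIN37 (0.88 and 1.14), E2F8 (0.65 and 0.99), TFDP1 (0.91 and 0.71) and MYBL2 (0.71 and 0.45) came next, 5 and 4 genes were at least 1.5-fold higher, and 0 and 1 were lower by as much. Of all 12403 genes used, 6393 lay above 0 with si-RBCK1 #1 and 6641 with si-RBCK1 #2. With each siRNA 12 of the 18 regulators lay above 0 and 6 below. Those below included RB1 (-0.48 and -0.40) and E2F5 (-0.44 and -0.84), named after their values were seen. Of 13 S phase genes, 11 and 10 were at least 1.5-fold higher, with medians of 1.06 and 0.84. RRM2, a subunit of ribonucleotide reductase, had log2 ratios of 2.27 and 1.92, PCNA, the sliding clamp, 1.74 and 1.51, CCNE2, a cyclin of the G1/S transition, 1.46 and 1.61, and FEN1, a flap endonuclease, 1.09 and 1.09. TYMS, which makes thymidylate, had 1.29 and 1.44 as listed, but its 3 values gave no whole reads.

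Of 12 G2 and mitosis genes, 2 were at least 1.5-fold higher with each siRNA, against 12.1% and 11.3% of all genes. At the same limit 2 and 1 were lower, against 11.6% and 9.32% of all genes. These counts are small and near those shares, and the medians were 0.08 and 0.08. MKI67, which coats mitotic chromosomes, had log2 ratios of 0.87 and 1.03. CCNB1 (0.55 and 0.64) was at least 1.5-fold higher with si-RBCK1 #2 only. AURKB (0.68 and 0.25), named after its values were seen, was so with si-RBCK1 #1 only. CCNB2 (-0.86 and -0.86), UBE2C (-0.63 and -0.33) and CDK1 (-0.46 and -0.30) were lower. All values of this list lie below the median of the ring genes.

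The genes whose pair of log2 ratios lay nearest to the pair of ring medians were sought among 5541 other protein-coding genes whose mean reached 10 RPKM, by Euclidean distance over 2 ratios from 3 libraries. The 5 nearest were NTHL1, a DNA glycosylase (distance 0.0335), DTL, the substrate receptor of the ligase that degrades CDT1 in S phase (0.0546), TUBA1B, an alpha tubulin with near-identical paralogs (0.0656), ID1, an inhibitor of helix-loop-helix factors (0.0670), and ANXA6, an annexin (0.0778). DTL was at 9.22 RPKM in si-Control, 24.2 RPKM in si-RBCK1 #1 and 26.3 RPKM in si-RBCK1 #2. The values of NTHL1 gave no whole reads, as for 16 of the genes used, TYMS among them, and its place rests on the values as listed.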

How the data were processed

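RNA-seq was done on 3 Caki-1 libraries, 1 per condition, made with a directional kit after removal of ribosomal RNA. The deposited table holds RPKM values per gene, made by the authors from reads on hg19. The submitters' processing notes name Trimmomatic, FastQC, TopHat2 and HTSeq, and the annotation and the strand setting are not given in the sources used here. Its columns of the authors' own comparisons (fold changes, p and q values) were not used. Log2 ratios were taken on log2(RPKM + 1) over genes whose mean reached 1 RPKM, with fold limits of 2 and 1.5. Whole reads were recovered from the RPKM steps for 99.9% of genes used, a description of counting error and not of replicate error. No significance test was run. On simulated data the recovery of reads was checked only up to a common factor, so reads that are too few would not show. The intervals were checked on simulated reads with counting error alone. Named were all members, RBCK1, neighbours that overlap a member or start within 1000 nt on the opposite strand, up to 5 genes per list with the largest smaller ratio of the 2 siRNAs (all genes of lists of 5 or fewer), and the 5 nearest genes. A few further genes are marked in the text as named after their values were seen. The members and lists were chosen with earlier results of these data known. Other pseudocounts, filters and scalings were tried. Calculations used scipy 1.17.1, pandas 2.3.3 and numpy 2.4.6 under Python 3.11.15, and plots matplotlib 3.10.9.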

Additional observations from a re-analysis of the deposited data

How the results depend on the processing

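The counts of members past 2-fold (6 with each siRNA) and 1.5-fold (7 with each siRNA) were the same with pseudocounts of 0.1 and 5 RPKM, with libraries scaled to equal medians or equal totals, with no filter and with a filter of a mean of 5 RPKM. A pseudocount of 5 RPKM lowered the MCM2-7 median log2 ratio to 1.13 with si-RBCK1 #1 and 1.16 with si-RBCK1 #2, by construction of the larger pseudocount. The log2 ratio of the summed MCM2-7 level was 1.37 and 1.44, the latter further from the median than the median counting error of the 6 subunits but not than that of MCM5 or MCM6, and the cause was not tested. The sign of 1 member value changed, that of MCM8 with si-RBCK1 #1 under equal totals (-0.00092). A pseudocount of 5 RPKM also lowered by more than 1.5 times the medians of the CMG partners (0.72 and 0.49), origin firing (0.27 and 0.29) and the MCM8-9 partner list (0.32 and 0.15) with both siRNAs, of the E2F, RB and DREAM regulators with si-RBCK1 #1 (0.14) and of helicase unloading with si-RBCK1 #2 (0.12), and the MCM8 log2 ratio with si-RBCK1 #2 (0.15). Scaling to equal medians lowered that of MCMBP with si-RBCK1 #2 from 0.11 to 0.07. With si-RBCK1 #2 the medians of the G2 and mitosis genes and of the E2F, RB and DREAM regulators were both 0.08. They were 0.03 under equal medians and 0.05 under equal totals. Under equal totals the G2 and mitosis median with si-RBCK1 #1 went from 0.08 to 0.03. That of the MCM7 intronic microRNAs with si-RBCK1 #2 was 0.54, against 1.11 and 0.14 with pseudocounts of 0.1 and 5 RPKM. The share of all genes at least 2-fold higher was 4.97%, 0.919% and 0.998% with si-RBCK1 #1 and 4.54%, 0.814% and 0.821% with si-RBCK1 #2 for a pseudocount of 0.1 RPKM, of 5 RPKM and no filter, and the share lower was 5.89%, 0.847% and 1.10%, and 4.21%, 0.782% and 0.765%. At 1.5-fold, a pseudocount of 5 RPKM and no filter gave 5.51% and 4.17% higher and 4.76% and 4.15% lower with si-RBCK1 #1, and 4.81% and 3.73% higher and 3.83% and 3.29% lower with si-RBCK1 #2. Without TYMS, an alternative chosen after seeing the data, the S phase median with si-RBCK1 #1 was 0.96. No paired analysis was possible because there was 1 library per condition. The 1 library per condition limits every value, since replicate error is unknown.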
